A study of Mus musculus with 10 samples.

Results

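The calcium-calcineurin-NFAT route was followed through 10 genes: the transcription factors Nfatc1, Nfatc2 and Nfatc3, the calcineurin genes Ppp3ca, Ppp3cb and Ppp3r1, the calcineurin inhibitor Rcan1, the calcium channel Orai1 and the calcium sensors Stim1 and Stim2. They were taken as a list of gene names, drawn up with earlier results of these data known, and all 10 were found, out of 25814 genes, in each of the 10 gene tables. RNA came from primary mouse keratinocytes and from splenic T cells isolated with CD8 microbeads, and there were 5 groups of 2 libraries. For keratinocytes the methods of the study name tails of adult mice and also newborn mice, and the titles of the libraries name neither. Keratinocytes, grown in a serum-free medium with 0.06 mM calcium, were sequenced either without T cells or after having shared a culture with them. The T cells, activated with 5 µg anti-CD3 and 2 µg anti-CD28 in X-VIVO 15 medium for 1 d, were sequenced directly (activated T cells), after 1 further d in keratinocyte medium, or after 1 further d with keratinocytes. The labels of the T-cell libraries give 1 d of co-culture, while the deposited design text gives 1 h. For the sequenced keratinocytes, the results of the study name the same duration as these labels and not that of the design text. In the methods of the study co-cultures held a mix of keratinocyte and X-VIVO medium. Its results name the same mix for T cells cultured without keratinocytes, a group called keratinocyte medium in the labels and here. The methods name C57/B6 mice and also lines without NFATc1 or NFATc2 in T cells, while the library labels name no genotype, allele or number of animals. The results of the study call the sequenced keratinocytes wild type. Replicate numbers were given in the labels for activated T cells and for both keratinocyte groups, whereas those of the other T-cell groups only follow the order of deposition.

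Store-operated calcium entry begins when receptor signalling empties the calcium store of the endoplasmic reticulum. STIM proteins sense the empty store and open ORAI channels in the plasma membrane, and the calcium that enters acts through calmodulin on calcineurin, a phosphatase built of 1 catalytic and 1 regulatory subunit. Calcineurin removes phosphates from NFATc proteins, which then enter the nucleus and, in T cells, switch on cytokine and activation genes together with AP-1. In the epidermis, a rise in external calcium drives keratinocyte differentiation, and calcineurin and NFAT proteins are present there too.

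The libraries held 12864931 to 18019609 exon reads each (median 14830028), and 3 reads on a gene of 1 kb, the limit that a count of 0 allows, corresponded to 0.158 to 0.212 RPKM (reads scaled to exon length and to the mapped reads of the library). That limit covers counting error only. Replicates differed far beyond sampling noise, with a chi-square per degree of freedom of 94.2 to 209. Nothing in the labels says whether the 2 libraries of a group came from separate animals or cultures, so the p-values below measure the spread between libraries, which may be technical. The 9 keratinocyte markers summed to 14381 to 18968 RPKM in the 4 keratinocyte libraries and to 7.42 to 101 RPKM in the 6 T-cell libraries, the highest values being those of co-cultured T cells. The 8 T-cell markers summed to 1307 and 1608 RPKM in activated T cells and to 1941 to 2788 RPKM in the 4 later T-cell libraries, but they were also read in keratinocyte libraries, with 107 and 423 RPKM in keratinocytes alone and 138 and 757 RPKM after co-culture. Cd3d, a T-cell receptor subunit, had 18.1 and 67.1 RPKM in keratinocytes alone and 19.0 and 115 RPKM in co-cultured keratinocytes, while Cd8a stayed between 0.118 and 1.16 RPKM there, against 110 to 334 RPKM in T-cell libraries. Cd4, the marker of the other T-cell lineage, was at 11.4 to 84.5 RPKM in keratinocyte libraries and at 16.8 to 102 RPKM in T-cell libraries, with the lowest and the highest of the latter both among activated cells.

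In keratinocytes alone the highest member was Ppp3ca at 95.5 ± 15.6 RPKM (SD, n = 2), followed by Ppp3r1 at 48.0 ± 1.17 and Stim1 at 31.0 ± 4.72 RPKM. The lowest was Nfatc2 at 1.09 ± 0.717 RPKM. In activated T cells the order was another: Ppp3r1 led with 51.9 ± 1.10 RPKM, then came Orai1 with 35.2 ± 9.56 and Ppp3cb with 23.1 ± 0.644 RPKM, and Rcan1 was last with 3.34 ± 0.997 RPKM. All of these are levels per exon length, the scale on which the genes were set side by side. The place of Ppp3r1 is uncertain, because 12.9% of its exon reads were uniquely mapped, against 98.0% or more for every other member. In activated T cells the ratio between replicates also went with exon length among the 10 members (Spearman correlation 0.71). The order of genes of unlike length is therefore approximate there. In bulk RNA, fewer cells of a type and less RNA per cell cannot be told apart.

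**Figure D1:**
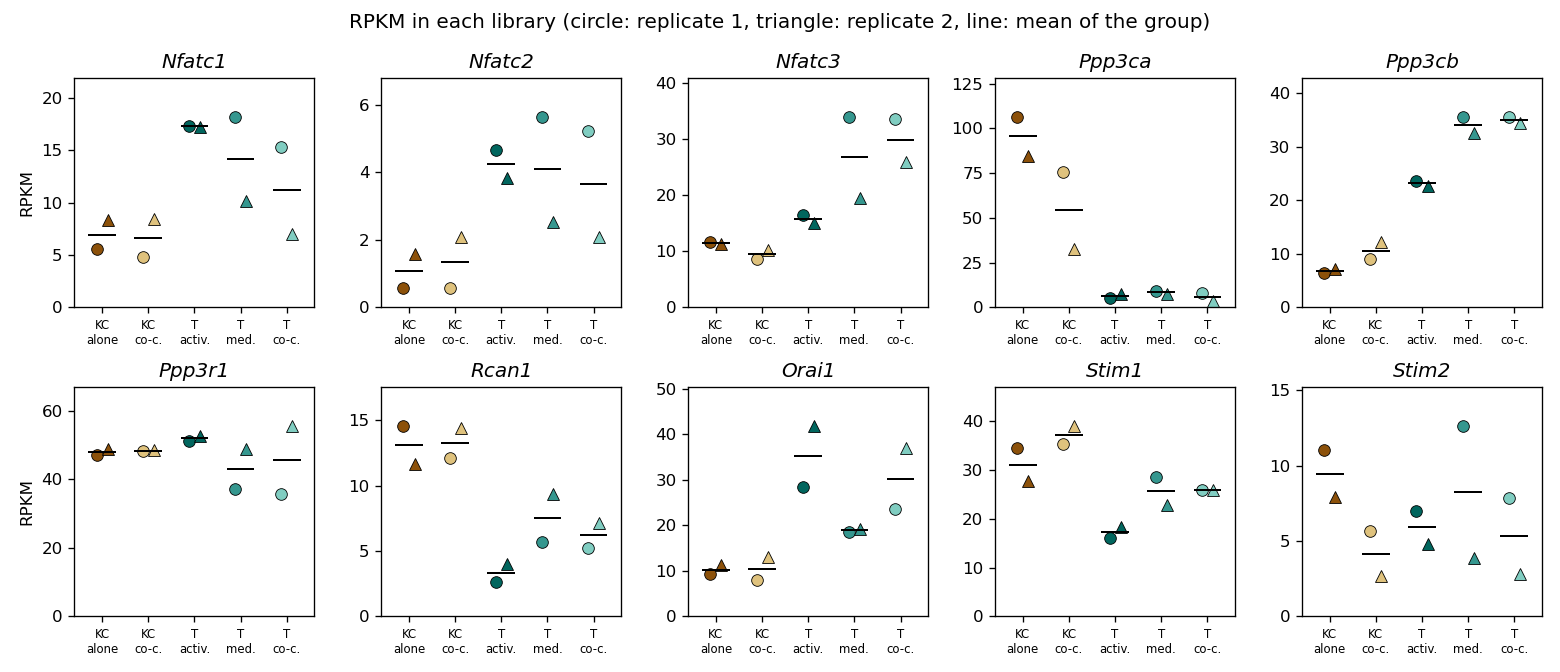
RPKM (vertical axis, linear, from 0) of the 10 genes in the 10 libraries, by group (KC, keratinocytes; co-c., co-culture; med., keratinocyte medium), with the mean of each group as a line. Ppp3ca is high in all 4 keratinocyte libraries (32.9 to 107 RPKM) and low in all 6 T-cell libraries (3.65 to 9.36 RPKM), and Ppp3cb shows the opposite order.

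Among the NFAT factors, Nfatc1 (NFATc1, chr18:80606205-80713071, minus strand, 13 exons, coordinates of GRCm38 as for all genes here) had 17.3 and 17.3 RPKM in activated T cells, 18.2 and 10.2 RPKM in T cells in keratinocyte medium, 15.4 and 7.05 RPKM in co-cultured T cells, 5.54 and 8.34 RPKM in keratinocytes alone and 4.80 and 8.47 RPKM in co-cultured keratinocytes. Both activated libraries thus lay close together, whereas in each of the other T-cell groups 1 library was well below the other, and only the co-cultured T cells lay wholly below the activated ones. Nfatc2 (chr2:168476410-168601657, minus strand, 18 exons), the factor known to be present already in resting T cells, was the lowest of these 3 NFAT genes in every library. Its RPKM was 4.68 and 3.83 in activated T cells, 5.66 and 2.54 in keratinocyte medium, 5.22 and 2.08 in co-culture, 0.579 and 1.59 in keratinocytes alone and 0.582 and 2.09 in co-cultured keratinocytes. In keratinocytes these values rested on 74 to 288 exon reads, and the 2 libraries with the higher Nfatc2 were also those with the higher Cd3d (67.1 and 115 RPKM); the part of T-cell RNA in them was not tested.

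Nfatc3 (chr8:106058840-106130537, plus strand, 14 exons), which is widely made in lymphoid and other tissues, had another course. It stood at 16.5 and 15.0 RPKM in activated T cells, at 34.1 and 19.6 RPKM in T cells in keratinocyte medium and at 33.7 and 26.1 RPKM in co-cultured T cells, so that all 4 later T-cell libraries were above both activated ones. Keratinocytes alone had 11.7 and 11.4 RPKM and co-cultured keratinocytes 8.73 and 10.2 RPKM. Within the summed RPKM of the 3 NFATc genes, Nfatc1 made up 45.0% and 47.8% in activated T cells, 31.5% in both libraries in keratinocyte medium, and 28.3% and 20.0% in co-culture. Nfatc3 made up 42.9% and 41.6% in activated T cells, and 58.8% to 74.0% in the 4 later T-cell libraries. Nfatc1 was therefore the larger share in activated T cells and Nfatc3 in all later ones, a description for which no test was made, as 2 libraries against 2 cannot go below a two-sided exact permutation p of 0.333. Nfatc4, the remaining calcium-regulated NFATc gene and not among the 10, had at most 10 reads in any library.

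The calcineurin genes set the cell types apart in opposite directions. Ppp3ca, the alpha catalytic subunit (chr3:136670124-136937727, plus strand, 16 exons), had 107 and 84.5 RPKM in keratinocytes alone and 75.7 and 32.9 RPKM after co-culture. In T cells it had 5.02 and 7.52 RPKM when activated, 9.36 and 7.44 RPKM in keratinocyte medium and 8.15 and 3.65 RPKM in co-culture. No T-cell library came near a keratinocyte library. The beta catalytic subunit Ppp3cb (chr14:20499364-20546573, minus strand, 21 exons) ran the other way. It had 6.38 and 7.17 RPKM in keratinocytes alone, 9.05 and 12.1 RPKM in co-cultured keratinocytes, 23.6 and 22.7 RPKM in activated T cells, 35.6 and 32.5 RPKM in keratinocyte medium and 35.6 and 34.3 RPKM in co-cultured T cells. Its replicates lay close together in all 3 T-cell groups.

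The remaining catalytic gene, Ppp3cc, is not among the 10 and was read as part of the other pathway genes. Ppp3ca made up 66.2% to 91.9% of the summed RPKM of the 3 catalytic genes in the 4 keratinocyte libraries and 4.06% to 13.5% in the 6 T-cell libraries, a difference of the means of 73.9 percentage points. A two-sided exact permutation test gave p = 0.00952, the smallest that 210 arrangements allow, and 0.0381 after Benjamini-Hochberg adjustment over 4 such shares. The share of Nfatc3 among NFATc genes, of Stim1 among STIM genes and of Orai1 among ORAI genes gave adjusted p of 0.905, 0.495 and 0.4 in the same exact permutation test, with differences of 0.858, 4.91 and -9.88 percentage points (keratinocytes minus T cells). These tests were chosen after the data had been seen, and they set the pooled libraries of a cell type against each other, whatever their culture. In co-cultured keratinocytes the Ppp3ca share was 86.3% and 66.2%, below both keratinocyte libraries without T cells (91.9% and 89.6%), and the lower of the values came from the library with the highest T-cell marker sum (757 RPKM); the part of T-cell RNA in it was not tested.

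**Figure D2:**
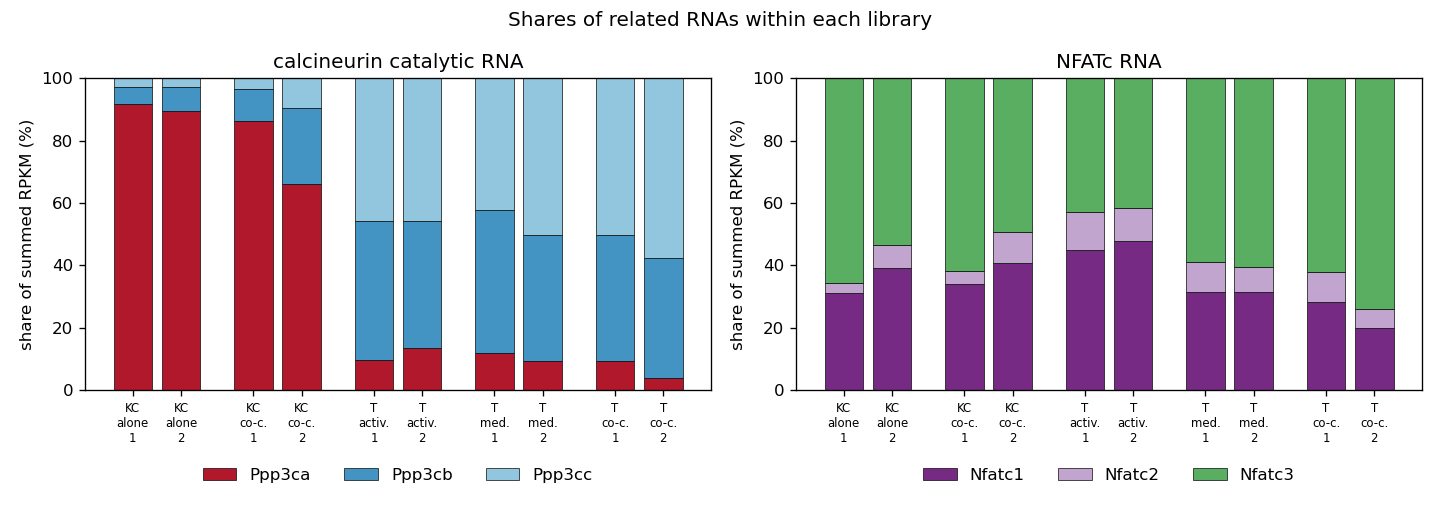
Share of each gene (vertical axis, in percent) in the summed RPKM of the calcineurin catalytic genes (left) and of the NFATc genes (right) in each library, 1 bar per library. Ppp3ca takes 66.2% to 91.9% of the left bars in keratinocytes and 4.06% to 13.5% in T cells, and on the right Nfatc3 takes at least 58.8% in the 4 T-cell libraries taken after activation.

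The regulatory subunit Ppp3r1 (chr11:17159263-17200375, plus strand, 6 exons) had the smallest ratio of its highest to its lowest library among the 10. Its RPKM was 47.1 and 48.8 in keratinocytes alone, 48.1 and 48.5 in co-culture, 51.2 and 52.7 in activated T cells, 37.0 and 48.9 in T cells in keratinocyte medium and 35.6 and 55.6 in co-cultured T cells. These values are uncertain, because 12.9% of its 21790 exon reads over the 10 libraries were uniquely mapped, against 98.0% or more for every other member. With uniquely mapped reads alone its log2 difference turned from -0.12 to 0.34 for T cells in keratinocyte medium minus activated T cells and from -0.04 to 0.31 for keratinocytes alone minus activated T cells, without passing the test.

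Rcan1, whose protein binds and inhibits calcineurin and whose inner promoter is a known NFAT target, lies at chr16:92391953-92466146 on the minus strand with 5 exons. It had 14.6 and 11.7 RPKM in keratinocytes alone and 12.1 and 14.4 RPKM in co-cultured keratinocytes. In T cells its RPKM was 2.63 and 4.04 when activated, 5.73 and 9.37 in keratinocyte medium and 5.24 and 7.16 in co-culture, on 111 to 405 exon reads. Every keratinocyte library was above every T-cell library, and the 4 later T-cell libraries were above both activated ones. RefSeq gives Rcan1 2 annotated starts, and the 250 bases before each are shown (RefSeq table on GRCm38.p6, minus strand, 5′ to 3′), because the gene is both a part of the route and a target of it. Capitals mark the NFAT core GGAAA on either strand (TTTCC on the strand shown).
Rcan1 inner start, chr16:92400079-92400328: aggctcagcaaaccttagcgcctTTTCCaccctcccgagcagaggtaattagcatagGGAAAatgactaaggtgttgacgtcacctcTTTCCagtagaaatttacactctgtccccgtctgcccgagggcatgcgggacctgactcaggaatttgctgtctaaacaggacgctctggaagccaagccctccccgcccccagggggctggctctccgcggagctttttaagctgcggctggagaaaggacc
Rcan1 outer start, chr16:92466170-92466419: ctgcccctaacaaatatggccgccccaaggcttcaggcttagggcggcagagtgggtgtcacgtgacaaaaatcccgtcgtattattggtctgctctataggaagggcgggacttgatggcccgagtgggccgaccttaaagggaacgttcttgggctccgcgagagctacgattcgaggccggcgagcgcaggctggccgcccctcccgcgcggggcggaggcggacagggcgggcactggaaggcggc
The window before the inner start held 3 cores and 1 match to the AP-1 motif TGANTCA, searched on both strands, and the outer one held neither. Of 32851 windows of the same length, 55.6% held at least 1 GGAAA core and 6.7% an AP-1 match. Windows of 8 of the 10 members were read, 11 in all. Those of Nfatc1 and Ppp3ca were not read, so nothing is said here about their cores. Ppp3cb had 3 GGAAA cores, Nfatc2 3 and 1 in its windows, Nfatc3 1 and 0, while Stim1, Stim2, Orai1 and Ppp3r1 had 0. A match describes letters, not binding, and the reads per gene do not tell the Rcan1 starts apart.

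Of the calcium entry genes, Orai1, the pore of the store-operated channel (chr5:123015074-123030456, plus strand, 4 exons), had 28.4 and 41.9 RPKM in activated T cells, 18.6 and 19.3 RPKM in keratinocyte medium and 23.5 and 37.0 RPKM in co-culture. Both libraries in keratinocyte medium were thus below all other T-cell libraries. Keratinocytes had 9.33 and 11.3 RPKM alone and 7.93 and 13.1 RPKM in co-culture, below every T-cell library. Stim1, the main sensor of store emptying (chr7:102267806-102437319, plus strand, 21 exons), had 16.1 and 18.2 RPKM in activated T cells, 28.5 and 22.7 RPKM in keratinocyte medium, 25.9 and 25.8 RPKM in co-cultured T cells, 34.4 and 27.7 RPKM in keratinocytes alone and 35.2 and 39.0 RPKM in co-cultured keratinocytes. Activated T cells were lowest, and co-cultured keratinocytes were highest, each without overlap with any other group.

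Stim2, which responds to smaller losses of stored calcium (chr5:53998499-54121057, plus strand, 17 exons), had 11.0 and 7.92 RPKM in keratinocytes alone and 5.64 and 2.69 RPKM in co-cultured keratinocytes, which did not overlap. In T cells its RPKM was 7.02 and 4.79 when activated, 12.7 and 3.87 in keratinocyte medium and 7.88 and 2.81 in co-culture. The replicates of the later T-cell groups differed by more than the groups did. Intron reads were also unequal for this gene: in co-cultured T cells, replicate 2 had 201 intron reads beside 197 exon reads (50.5% of its gene reads), against 12.6% in replicate 1 and 1.91% to 4.35% in keratinocytes. Replicate 2 was also the higher one in activated T cells (21.7% against 4.72%) and in keratinocyte medium (31.8% against 10.4%). The same order held in every T-cell group for Nfatc1, Nfatc2, Nfatc3, Ppp3ca, Ppp3r1 and Stim1. For Ppp3cb, Rcan1 and Orai1 it did not hold throughout. Over whole libraries replicate 2 was higher too, as in activated T cells (3.69% against 2.41%). In keratinocytes, Nfatc2 had 36.6% and 36.8% intron reads in replicate 1 of the groups.

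Keratinocytes alone were compared with activated T cells. Cell type, medium and antibody activation differed together between these groups and cannot be told apart. The T-cell group chosen also mattered. Rcan1 had means of 3.34 RPKM in activated T cells, 7.55 in T cells in keratinocyte medium and 13.1 in keratinocytes alone. For Orai1 the means were 35.2, 18.9 and 10.3 RPKM. By edgeR's quasi-likelihood test on exon reads (adjusted p under 0.05 after Benjamini-Hochberg adjustment over all 12666 genes tested), 2 of the 10 members were higher and 4 lower in keratinocytes. Of all genes 25.6% were higher and 15.3% lower, 40.9% in all, so the members' 2, 4 and 6 of 10 stand beside shares of a similar order. Ppp3ca was higher with a log2 fold change of 4.00 (SE 0.41, edgeR adjusted p = 0.00121), a difference of about 16-fold. Rcan1 was higher with 2.05 (SE 0.41, edgeR adjusted p = 0.0117), or 4.14-fold. The catalytic subunit Ppp3cb was lower with -1.69 (SE 0.31, edgeR adjusted p = 0.00824) and the channel Orai1 with -1.69 (SE 0.37, edgeR adjusted p = 0.0158), both about 3.23-fold. Nfatc1 was lower with -1.23 (SE 0.35, edgeR adjusted p = 0.0339) and Nfatc2 with -1.87 (SE 0.56, edgeR adjusted p = 0.0404). Stim1 had a log2 difference of 0.93 (edgeR adjusted p = 0.0547), Stim2 of 0.76, Nfatc3 of -0.37 and Ppp3r1 of -0.04, and none of these passed the test. All 10 genes had libraries that did not overlap between the groups, 4 higher and 6 lower in keratinocytes, as did 75.5% of all genes (39.6% higher and 35.9% lower). Without replicate 1 of keratinocytes alone, the library with the lower T-cell markers, only Ppp3ca and Rcan1 were still called.

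**Figure D3:**
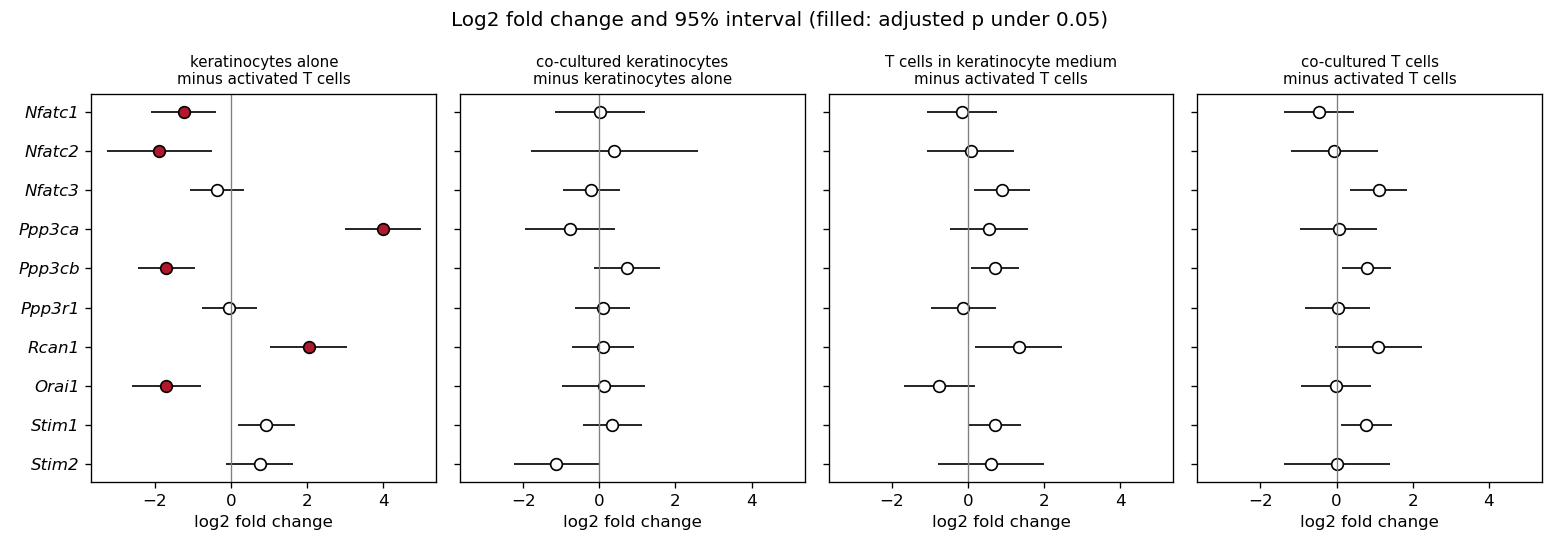
Log2 fold change (horizontal axis, same scale in all panels) of the 10 genes in 4 comparisons, with 95% intervals from edgeR and filled points where the adjusted p was under 0.05. Filled points stand in the first panel only, with Ppp3ca at 4.00 and Rcan1 at 2.05 on the right and Nfatc1, Nfatc2, Ppp3cb and Orai1 on the left.

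Activated T cells were then compared with the same kind of cells after a further day in keratinocyte medium or with keratinocytes. In both cases medium, time and, by the labels, the step from antibody activation to further culture changed together and cannot be told apart. Both comparisons share the activated libraries. The T-cell marker sum was also higher in all 4 later libraries (1941 to 2788 RPKM) than in the activated ones (1307 and 1608 RPKM), and the B-cell marker sum was 29.4 and 31.0 RPKM in activated T cells, 44.2 and 92.3 RPKM in keratinocyte medium and 16.6 and 27.2 RPKM in co-culture; their part in the values below was not tested. No member passed edgeR's test in T cells in keratinocyte medium, where 6.54% of 11863 genes were called (2.32% higher and 4.22% lower), and 4 of 10 had an unadjusted p under 0.05, beside 25% of all genes. These 4 were the ones that were higher without overlap: Rcan1 with a log2 fold change of 1.33 (SE 0.50, edgeR adjusted p = 0.147), Nfatc3 with 0.90 (SE 0.32, edgeR adjusted p = 0.134), Stim1 with 0.71 (SE 0.29, edgeR adjusted p = 0.179) and Ppp3cb with 0.70 (SE 0.28, edgeR adjusted p = 0.163). Orai1 (-0.75, SE 0.40, edgeR adjusted p = 0.294) and Ppp3r1 (-0.12) were lower without overlap. In all, the libraries of 6 of 10 members did not overlap, 4 higher and 2 lower, against 54.6% of all genes (22.1% higher and 32.5% lower). DESeq2 called 1 member, Nfatc3 (0.92, DESeq2 adjusted p = 0.0459), and limma on log2(RPKM + 1) called 0. The shares of all genes called by these methods are not given here, so their counts cannot be weighed against a background.

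In co-cultured T cells against the same activated libraries, 0 of 10 members passed edgeR's test, beside 10.3% of all genes (4.59% higher and 5.72% lower), and 3 had an unadjusted p under 0.05, beside 28.8% of all genes. These were Nfatc3 with 1.11 (SE 0.32, edgeR adjusted p = 0.0672), Ppp3cb with 0.79 (SE 0.28, edgeR adjusted p = 0.107) and Stim1 with 0.78 (SE 0.29, edgeR adjusted p = 0.126). Rcan1 had 1.09 (SE 0.50, edgeR adjusted p = 0.192), Nfatc1 -0.47 (SE 0.40), and the other 5 lay between -0.06 and 0.06. The same 4 genes as above were higher without overlap and Nfatc1 was lower, 5 of 10 against 57.6% of all genes (23.6% higher and 33.9% lower). DESeq2 called Nfatc3 (1.14, DESeq2 adjusted p = 0.00796) and Ppp3cb (0.83, DESeq2 adjusted p = 0.0336), limma 0, and with the low-count filter dropped or the trend on exon length removed edgeR called Nfatc3 (edgeR adjusted p = 0.0336 and 0.0173). The 10.3% of all genes belongs to the main edgeR fit. Shares for these other settings are not given here, so their calls cannot be weighed against a background.

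The presence of keratinocytes as such was addressed by co-cultured T cells against T cells in keratinocyte medium. For both groups the results of the study name the same mix of media. No member was called by edgeR, DESeq2 or limma and 0 had an unadjusted edgeR p under 0.05, where 0.261% of all genes were called by edgeR, all of them higher in co-culture, and 3.45% had an unadjusted p under 0.05. The log2 differences ran from -0.59 for Stim2 (95% interval -1.98 to 0.81) to 0.75 for Orai1 (-0.19 to 1.68). Orai1 was the 1 member of 10 without overlap, at 23.5 and 37.0 RPKM against 18.6 and 19.3, while 27.4% of all genes did not overlap (14.2% higher and 13.1% lower). For Nfatc3 the interval was -0.53 to 0.95, for Ppp3cb -0.54 to 0.72 and for Stim1 -0.60 to 0.74, so changes within those bounds were not excluded.

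In keratinocytes, co-culture was compared with culture alone. The methods of the study give co-cultures a part of X-VIVO medium and name none for keratinocytes alone. The presence of T cells and the medium can therefore not be told apart here. By edgeR 0 of 10 members and 0% of the 12515 genes tested were called, and DESeq2 and limma called no member either. Stim2 had an unadjusted p under 0.05 with a log2 fold change of -1.13 (SE 0.43, edgeR adjusted p = 0.658), 1 of 10 members, beside 7.2% of all genes. Ppp3ca had -0.77 (SE 0.46) and Ppp3cb 0.73 (SE 0.34), both with an edgeR adjusted p of 0.658. Nfatc3, Ppp3ca and Stim2 were lower and Ppp3cb and Stim1 higher without overlap, 5 of 10 members against 44.1% of all genes (19.8% higher and 24.3% lower). Replicate 2 of the co-cultured keratinocytes had the lowest Ppp3ca and Stim2 and the highest Ppp3cb, Stim1 and T-cell markers of the 4 libraries. Without replicate 1 of that group, which left a lone library in it, the log2 fold change of Stim2 was -1.68. The difference between the co-culture effects in T cells (against keratinocyte medium) and in keratinocytes (against culture alone) was tested over 13202 genes, and 0 of 10 members were called by edgeR, DESeq2 or limma, 0 had an unadjusted edgeR p under 0.05. Of all genes edgeR called 0.576% (0.523% with the more positive effect in T cells and 0.053% with the more negative one), and 7.06% had an unadjusted p under 0.05.

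The wider route was read through 47 other genes, of which 46 were in the tables and 38 were tested in T cells. In T cells in keratinocyte medium, 1 was higher and 2 were lower than in activated T cells, a share near the 6.54% of all genes. Saraf, which shuts down store-operated entry by acting on STIM1, was at 76.3 and 103 RPKM in activated T cells and at 311 and 307 RPKM in keratinocyte medium, with a log2 fold change of 1.93 (SE 0.34, edgeR adjusted p = 0.021). Fkbp1a, the protein through which tacrolimus blocks calcineurin, fell by 1.37 (SE 0.32, edgeR adjusted p = 0.044) from 214 and 191 to 65.2 and 75.6 RPKM. Mcu, the pore of the mitochondrial calcium uniporter, fell by 1.93 (SE 0.44, edgeR adjusted p = 0.0429) from 6.32 and 4.94 to 1.52 and 1.16 RPKM.

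Co-cultured T cells also had 1 higher and 2 lower genes of the 38, beside 10.3% of all genes, so that neither count sets the list apart. Saraf was at 307 and 374 RPKM (2.12, SE 0.34, edgeR adjusted p = 0.0109), Fkbp1a at 60.6 and 74.7 RPKM (-1.37, SE 0.32, edgeR adjusted p = 0.033), and Plcg2, a phospholipase that makes the store-releasing messenger IP3, at 1.02 and 0.362 RPKM against 5.26 and 3.41 (-2.48, SE 0.59, edgeR adjusted p = 0.0375). Over 16 settings, Saraf passed in 13 in keratinocyte medium and in 15 in co-culture, Fkbp1a in 11 and 9, Mcu in 10 and 3 and Plcg2 in 5 and 12. Mcu was also lower in co-culture (-1.51, edgeR adjusted p = 0.0645), without passing. Likewise Plcg2 was lower in keratinocyte medium (-1.94, edgeR adjusted p = 0.0855), without passing. In keratinocyte medium 0 of the 3 calls were left without replicate 1 of activated T cells or without either library of that medium, and in co-culture 0 were left without replicate 1 of activated T cells and 1 without replicate 2 of the co-cultured T cells. Median log2 fold changes of the 38 were 0.30 and 0.16, beside -0.01 over all genes in either comparison. With keratinocytes present rather than their medium alone, none of the 38 was called by edgeR in T cells (0 with an unadjusted p under 0.05, and 0 by DESeq2 or limma), nor of 40 between the keratinocyte groups (3 with an unadjusted p under 0.05, 1 called by DESeq2 and 0 by limma), although 4 were lower when replicate 1 of co-cultured keratinocytes was left out.

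Between keratinocytes alone and activated T cells, 13 of 40 other pathway genes were higher in keratinocytes and 4 lower, 17 in all against the background of 40.9%, and without replicate 1 of keratinocytes alone 9 were called. The 8 higher genes with the greatest log2 fold changes were Cracr2b (no read in activated T cells), Homer2 (6.76, on 8 and 5 reads in activated T cells), Homer3 (5.21, on 19 and 0 reads in activated T cells), Itpr3 (3.39), Dyrk1b (2.93), Plcg2 (2.36), Trpm4 (1.98) and Gsk3b (1.78). Itpr3 encodes a channel that releases stored calcium, and Gsk3b and Dyrk1b encode kinases of families that return NFAT to the cytoplasm. The lower ones were Ppp3cc (-3.03), the potassium channel Kcnn4 (-2.54), the IP3 receptor Itpr1 (-1.73) and Fkbp1a (-1.40). Ppp3cc, the gamma catalytic subunit, had 3.04 and 2.69 RPKM in keratinocytes alone and 24.0 and 25.5 RPKM in activated T cells, so that it sided with Ppp3cb and not with Ppp3ca.

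A list of 24 genes that NFAT proteins are known to drive in T cells was drawn up with earlier results of these data known, so its counts are no independent evidence of a direction, and Rcan1, a member, is not on it although it too is a known target. Of the 24 genes, 11 were lower and 0 higher in T cells in keratinocyte medium than in activated T cells, and the same counts were found in co-cultured T cells. Over all genes 4.22% were lower and 2.32% higher in keratinocyte medium, and 5.72% and 4.59% in co-culture. The median log2 fold change was -2.39 and -2.63, beside -0.01 over all genes. Ifng, the cytokine interferon gamma, was at 613 and 589 RPKM in activated T cells, at 5.95 and 7.20 RPKM in keratinocyte medium and at 3.26 and 6.20 RPKM in co-culture. The chemokine Ccl3 fell from 291 and 260 RPKM to 12.8 and 10.6 RPKM in keratinocyte medium and to 11.8 and 11.0 RPKM in co-culture. Il3, a growth factor of blood cells, was read 147 and 195 times in activated T cells and 0 times in all 4 later libraries, which at 3 reads per library as the limit is at least 54.9-fold lower in keratinocyte medium and at least 49.8-fold lower in co-culture. The medians do not depend on the value set for Il3, since its bound also lies below them.

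Among the other target genes called lower in keratinocyte medium, those with the greatest log2 differences were the chemokines Ccl4 (-3.69) and Xcl1 (-3.64), the costimulatory receptor Tnfrsf9 (-3.44), the interleukin 2 receptor chain Il2ra (-3.29) and the transcription factor Irf4 (-3.11). In co-culture the corresponding values were -3.80, -3.39, -3.87, -2.80 and -3.08, and all of these were called by edgeR in both comparisons. Leaving out 1 of the 6 T-cell libraries left 3 to 12 of the 24 called in keratinocyte medium and 9 to 11 in co-culture, all lower. The count was 3 without replicate 2 and 4 without replicate 1 of T cells in keratinocyte medium, and 5 without replicate 1 of activated T cells. When co-cultured T cells were set against those in keratinocyte medium, edgeR, DESeq2 and limma called 0 of the 24, and 0 had an unadjusted edgeR p under 0.05. Of 23 tested between keratinocytes alone and activated T cells, 13 were lower and 0 higher in keratinocytes, beside 15.3% and 25.6% of all genes. Of 19 tested between the keratinocyte groups, edgeR, DESeq2 and limma called 0, and 2 (Egr2 and Egr3) had an unadjusted edgeR p under 0.05, beside 7.2% of all genes. Both were lower in co-culture, whereas 16 of the 19 had a log2 fold change above 0 (median 0.93).

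**Figure D4:**
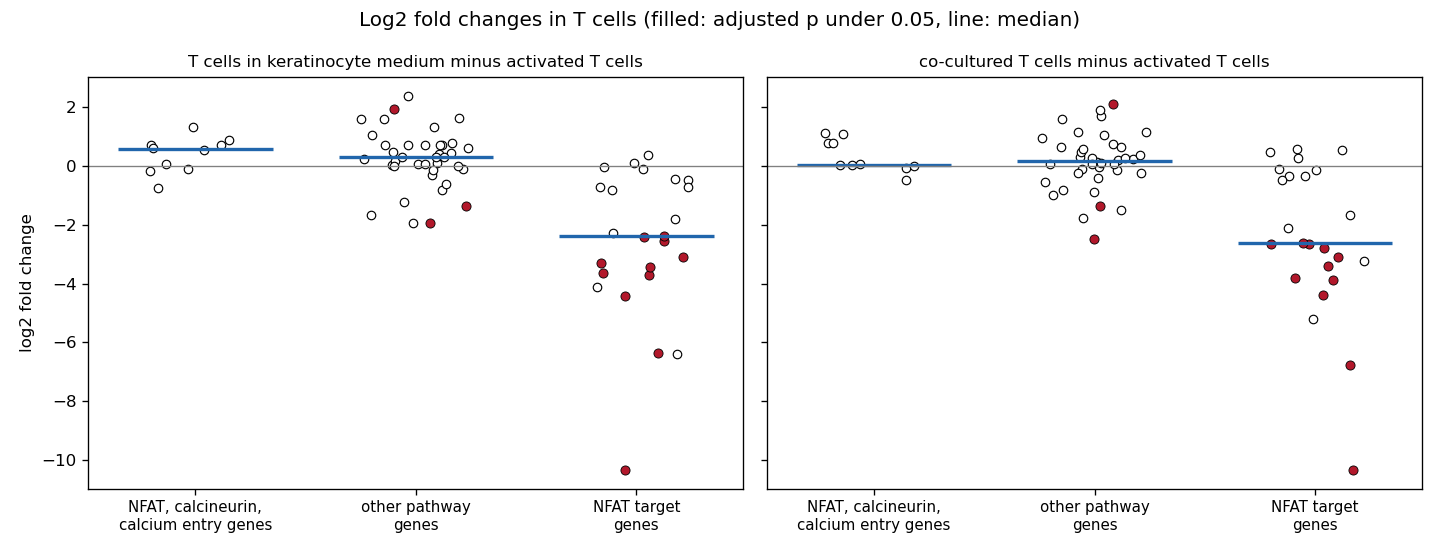
Log2 fold changes (vertical axis) of the 10 genes, of the other pathway genes and of the NFAT target genes in T cells in keratinocyte medium (left) and in co-cultured T cells (right) against activated T cells, with the median as a line and filled points where the edgeR adjusted p was under 0.05; both panels share the activated libraries. The 10 genes lie between -0.75 and 1.33 with 0 filled, and the target genes have 11 filled points below 0 in each panel; the lowest point is Il3, whose fitted value depends on a prior count.

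Genes with the most similar course were sought by Pearson's correlation of log2(RPKM + 1) over the 10 libraries among 8744 genes, as a description. The libraries share cell type and replicate structure, so high values are common. Ppp3ca came nearest to Aplp2, Sgcb and Capn2 (r from 0.992 to 0.995), Ppp3cb to Dck, Wdr82 and Tada1 (0.990 to 0.991) and Stim1 to Ikbkg, Trafd1 and Tpp1 (0.947 to 0.986). Nearest to Stim2 were Fryl, Sp1 and Os9, to Rcan1 Rit1_1, Fbxo3 and Hebp1, to Nfatc1 Nedd9, Tgfb1 and Sept9, to Nfatc3 Taf8, Smap2 and Stk4, and to Orai1 Gon7, Slc2a3 and Cdc26, all with r above 0.96. Ppp3r1 had the weakest likeness (Yaf2, Orc4 and Med7, 0.869 to 0.933), and Nfatc2 stayed under a mean of 5 RPKM in every group and was not matched.

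Among the 10 members, the ratio between replicates went with exon length in T cells. Across the 10 members, which differ in length from 1875 bases (Orai1) to 8367 bases (Nfatc2), the ratio of replicate 1 to replicate 2 had a Spearman correlation with exon length of 0.71 in activated T cells, 0.88 in keratinocyte medium and 0.85 in co-cultured T cells, and of -0.25 and -0.22 in the keratinocyte groups. In co-culture the long genes Nfatc2 and Nfatc1 were higher in replicate 1 by 1.33 and 1.12 on the log2 scale, and the short genes Orai1 and Ppp3r1 lower, at -0.66 and -0.64. The contrast between the cell types was not seen over all genes. There the same correlation was 0.321 in keratinocytes alone and 0.334 in co-cultured keratinocytes. It was 0.235 in activated T cells, 0.437 in keratinocyte medium and 0.366 in co-cultured T cells. Its part in the spread was not tested further, but with the trend on exon length removed from each library 0, 1 and 0 of the 10 genes were called in the 3 comparisons of T cells in the order given above.

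**Figure D5:**
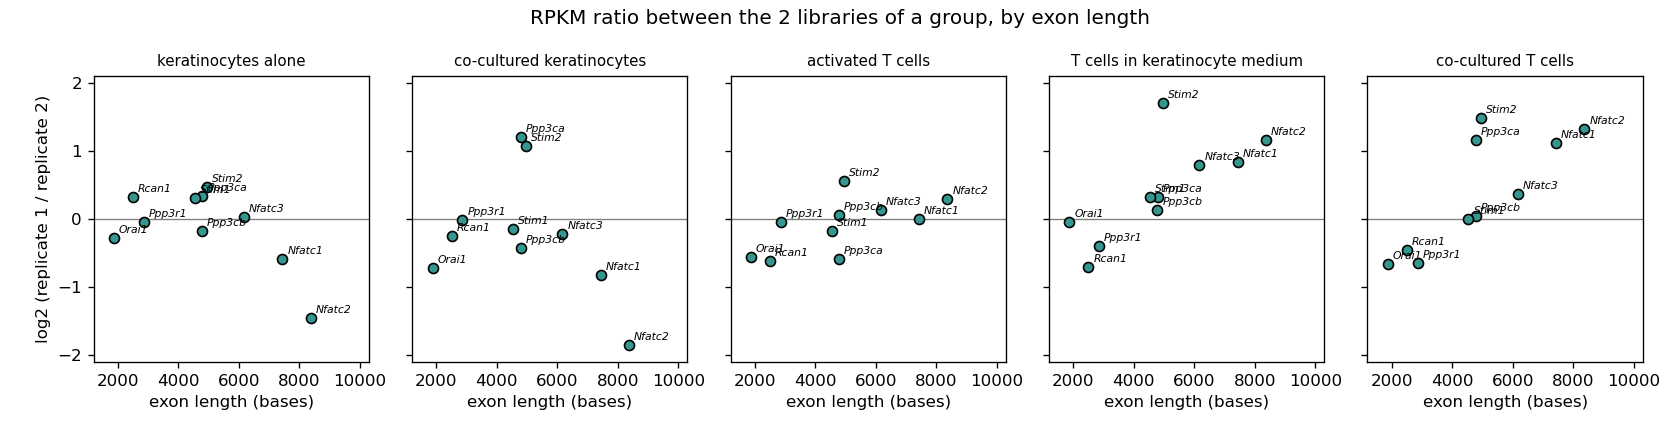
Log2 ratio of RPKM in replicate 1 to replicate 2 (vertical axis) against exon length in bases (horizontal axis) for the 10 genes, 1 panel per group. In the T-cell panels the short genes Orai1, Rcan1 and Ppp3r1 lie below 0 and Nfatc2 lies above 0, up to 1.33, whereas in keratinocytes Nfatc2 lies lowest, at -1.46 and -1.84.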

How the data were processed

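Poly(A) RNA libraries from 5 groups of 2 were sequenced, and reads were aligned to the mouse genome GRCm38 and counted per gene by the authors with CLC Genomics Workbench, whose tables give raw counts of exon, intron and uniquely mapped reads and RPKM values per gene, as deposited. RPKM is written there with decimal commas, which were read as decimal points. Total exon reads were tested by the quasi-likelihood test of edgeR 4.0.16, run in R 4.3.3 (genes kept by filterByExpr, TMM scaling, Benjamini-Hochberg adjustment over all genes tested, threshold 0.05), the 3 T-cell groups sharing a fit. As alternatives served DESeq2 1.42.0, the log2 of RPKM with a pseudocount of 1 or 0.1 in limma 3.58.1, scaling by library size, other filters, uniquely mapped reads and the omission of each library, and the fits were tested on simulated data. Shares were tested with scipy 1.17.1 in Python 3.11.15. Depth was 12864931 to 18019609 exon reads, and the number of libraries limits the precision. The members and gene lists were chosen with earlier results of these data known. The shares and the removal of a trend on exon length were chosen after the data had been seen. All members were named, and of each other list the called genes up to 8 per direction by log2 fold change. For the likeness, genes with a mean of 5 RPKM in some group entered.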

Additional observations from a re-analysis of the deposited data

How the results depend on the processing

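DESeq2 called 1 member (Nfatc3) in T cells in keratinocyte medium and 2 (Nfatc3 and Ppp3cb) in co-cultured T cells against activated T cells, where edgeR without the filter on low counts called 1 and with the trend on exon length removed 1, both Nfatc3. Leaving out each library gave 0 to 1 calls for co-cultured keratinocytes (1, Stim2, without their replicate 1) and 2 to 5 for keratinocytes alone against activated T cells (2 without replicate 1 of keratinocytes alone); in the other comparisons the count of members called stayed at 0. Of the NFAT target genes 3 to 12 were called in keratinocyte medium with 1 library left out, and of the other pathway genes 0 to 6 there and 9 to 16 between keratinocytes alone and activated T cells. With DESeq2 the other pathway genes gave 4 higher and 4 lower calls in keratinocyte medium and 3 and 4 in co-culture. Scaling by library size moved the median over all genes from -0.01 to -0.13 in keratinocyte medium and to -0.17 in co-culture. The shares of all genes called in these settings are not given here, so the counts cannot be weighed against a background. Where a library was left out, the lone library of its group was assumed to vary like the others.

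The sign turned only for members that were not called. Against activated T cells, Nfatc2 in keratinocyte medium was at -0.020 with library-size scaling and at -0.11 and -0.15 by limma with pseudocounts of 1 and 0.1, and Ppp3r1 at 0.34 with uniquely mapped reads. In co-culture, library-size scaling and limma with both pseudocounts gave -0.071, -0.14 and -0.17 for Ppp3ca, -0.16, -0.22 and -0.22 for Ppp3r1 and -0.12, -0.23 and -0.29 for Stim2. Nfatc2 was at 0.21 without the length trend, and Orai1 at 0.034 by DESeq2 and at 0.0077 with only the 2 groups compared. In co-cultured keratinocytes the same 3 settings gave -0.049, -0.076 and -0.090 for Nfatc1, and the fit of all 10 libraries -0.0022. Without the length trend Nfatc3 was at 0.27, Rcan1 at -0.042 and Orai1 at -0.14, and limma gave -0.0069 and -0.011 for Orai1. For keratinocytes alone minus activated T cells, Ppp3r1 was at 0.011 by DESeq2, at 0.031 with at least 10 reads in every library, at 0.31 with uniquely mapped reads and at 0.034 in the fit of all 10 libraries. The causes were not tested.

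With each library left out, log2 differences in keratinocyte medium ranged from -0.52 to 0.15 (Nfatc1), -0.49 to 0.49 (Nfatc2), -0.42 to 0.16 (Ppp3r1) and -0.35 to 1.18 (Stim2). In co-cultured T cells they ranged from -0.74 to 0.39 (Nfatc2), -0.50 to 0.46 (Ppp3ca), -0.45 to 0.39 (Ppp3r1), -0.50 to 0.36 (Orai1) and -0.77 to 0.52 (Stim2). In co-cultured keratinocytes the ranges were -0.55 to 0.41 (Nfatc1), -0.92 to 1.36 (Nfatc2), -0.0091 to 0.14 (Ppp3r1), -0.13 to 0.27 (Rcan1) and -0.39 to 0.47 (Orai1), and for keratinocytes alone minus activated T cells -0.063 to 0.045 (Ppp3r1).

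The replicate block could be added for 2 comparisons, whose same-numbered libraries deviated together (r = 0.67 for the keratinocyte groups and 0.32 for keratinocytes alone and activated T cells), but 2 pairs do not establish a pairing. The block left 0 and 6 members called and turned Nfatc1 in co-cultured keratinocytes to -0.019.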
